A study of Homo sapiens with 24 samples.

Results

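CD44, TNFRSF12A, NES, PROM1, CD24, ICAM1 and THY1 are genes used to mark progenitor cells, and their transcripts were followed through 48 h of reprogramming of a human liver cell line. A probe set is a group of short probes for 1 or more transcripts. The genes were read with every probe set that the array's annotation table assigns to 1 of the 7 symbols. This gave 23 probe sets of 22215 on the array that are not controls: 8 for CD44, 6 for CD24, 3 each for ICAM1 and THY1, and 1 each for TNFRSF12A, NES and PROM1. Of these, 21 passed the filter on low signals and were tested; the exceptions were CD44 216056_at and the PROM1 probe set.

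HepaRG is a bipotent human liver progenitor line of tumour origin, 1 cell line throughout, whose cells become hepatocyte-like or biliary-like when kept confluent and then given DMSO. In this study such cultures, grown for 2 weeks and then held with DMSO for 2 more, were the source of every array; their medium held serum, insulin and hydrocortisone hemisuccinate. Their hepatocyte-like cells were freed by mild trypsin and plated sparsely, which the labels give as the trigger of reprogramming, and RNA was taken at 0 h, at 1, 4 and 8 h, at 12 and 16 h, and at 24 and 48 h, with 3 arrays at each time. All times share the line and the DMSO history, and the labels tell them apart only by the hours of reprogramming. No culture left undisturbed over the same hours was analysed here. The labels do not say whether the 3 replicates came from separate cultures, so p-values measure a spread between samples that may be only technical.

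CD44 is a membrane receptor for hyaluronan, a sugar polymer of the extracellular matrix, and its cytoplasmic tail is tied to actin through ezrin, radixin and moesin. TNFRSF12A, also called Fn14, is the receptor for the cytokine TWEAK, which signals through TRAF adaptors to NF-kappaB and is known for driving liver progenitor growth in mice. ICAM1 binds leukocyte integrins and is a textbook NF-kappaB target gene. NES encodes nestin, an intermediate filament protein inside the cell and so no surface protein, which is found in neural and other progenitors. CD24 and THY1 are small proteins held to the outer membrane by a GPI lipid anchor, and PROM1 (CD133) is a pentaspan membrane protein.

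The label of the cells was checked with marker genes. All 16 measured hepatocyte markers passed the filter. Their summed signal was 161017 to 187525 on the 48 h arrays, against 568397 to 606460 at 0 h. By the rule for calls given below, 16 of 16 were lower at 48 h (11.6% of all tested genes). The biliary sum was 22417 to 26388 at 48 h, against 8138 to 9134 at 0 h, with EPCAM and CFTR below the filter. Of the 7 tested biliary genes 2 were called as higher at 48 h (9.76% of all tested genes) and 0 as lower. The mesenchymal and stellate sum was 7042 to 9331 at 48 h, against 2161 to 2579 at 0 h, with PDGFRA, LRAT and RGS5 below the filter. Here 4 of 9 tested genes were called as higher and 0 as lower. The endothelial sum, with VWF, CDH5, TEK, EMCN and TIE1 below the filter, was 216 to 384 at 48 h, against 756 to 913 at 0 h. The leukocyte sum, with PTPRC, LYZ, CD52 and CORO1A below it, was 520 to 577 at 48 h, against 754 to 1130 at 0 h. In the endothelial and in the leukocyte list, 2 of 6 tested genes were called as lower and 0 as higher. Bright genes weigh most in these sums, and most tested markers outside the hepatocyte list were not called. In such bulk samples, more cells of a type and more RNA per cell cannot be told apart, and the part of these shifts in the results below was not tested.

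As a sign of RNA quality, the ratio of the 3' to the 5' control probe set of ACTB, which goes up as RNA degrades, averaged 1.16 ± 0.13 on the arrays of 48 h, against 3.84 ± 2.68 on those of 0 h (SD, n = 3), with 6.91 on 0 h replicate 2. Without that array the numbers of tested probe sets of the 7 genes that were higher than at 0 h were 3, 12, 11, 10, 9, 8 and 9 in order of time, and 3, 12, 10, 10, 10, 10 and 9 with it.

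A change is given as the later time minus the earlier on the log2(signal + 18) scale, and is called where limma's adjusted p is under 0.05, over all 17122 tested probe sets, and the difference is at least 2-fold. At 1 h, 3 of the 21 tested probe sets were higher than at 0 h (1.99% of all tested probe sets): those of TNFRSF12A and 2 of ICAM1. At 4 h, 12 were higher (7.13% of all): 7 of CD44, 3 of ICAM1, and those of TNFRSF12A and NES. The number was 10 at 8 h (8.01% of all), 12 h (8.46%), 16 h (8.52%) and 24 h (9.26%), and 9 at 48 h (9.23%). None of the 21 was lower at any of the 7 times, when between 0.549% (at 1 h) and 11.1% (at 16 h) of all tested probe sets were. The median change over the 21 was 1.30 at 4 h and 0.68 at 48 h, beside -0.15 and -0.12 over all tested probe sets. By the moderated F-test over all times 14 of 21 differed (53.6% of all).

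**Figure D1:**
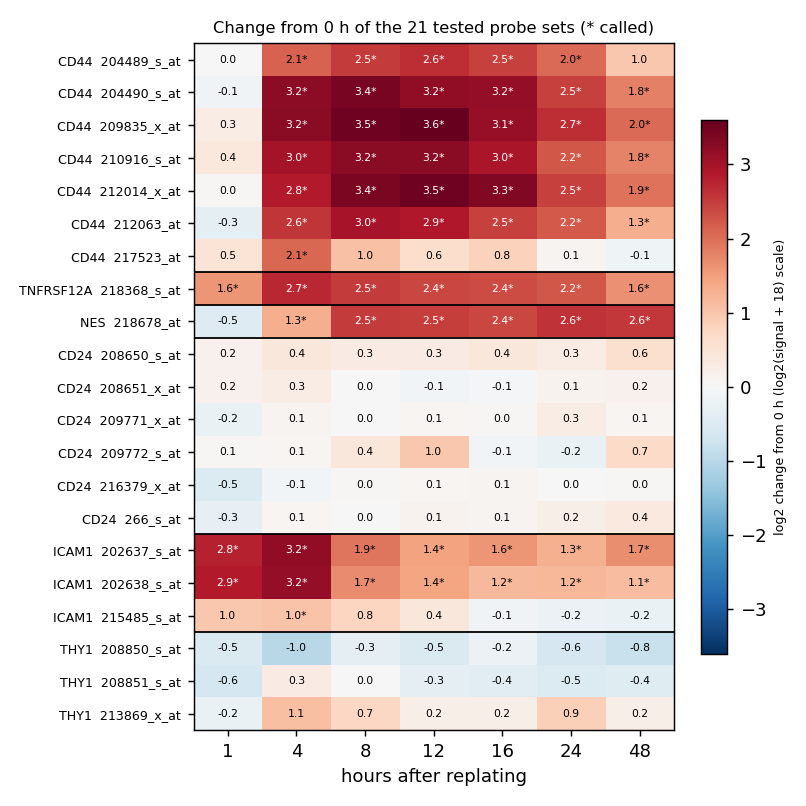
Log2 change from 0 h (colour and printed value) of the 21 tested probe sets at 7 later times, with an asterisk where the change was called. The CD44, TNFRSF12A, NES and ICAM1 blocks are red from 4 h on except for late times of 217523_at and 215485_s_at, while no CD24 or THY1 cell carries an asterisk.

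CD44 had no called change at 1 h, was higher at 4 h and at each later time than at 0 h, and by 48 h was below its level at 8 h. The promoter window, the 250 bases before the gene's start, is shown to be read beside that of ICAM1, which was called earlier; it was searched on both strands for the AP-1 motif TGANTCA, the TEAD motif GGAATG, the E-box CACGTG, the NF-kappaB consensus and a looser NF-kappaB form, GGAANNTCC. The sequence is RefSeq's on GRCh38.p14, and capitals would mark a match; this window holds none. Of all 35116 such windows 6.57% hold the AP-1 motif, 11.9% the TEAD motif and 6.34% the E-box.
CD44 promoter window, chr11:35138921-35139170, + strand: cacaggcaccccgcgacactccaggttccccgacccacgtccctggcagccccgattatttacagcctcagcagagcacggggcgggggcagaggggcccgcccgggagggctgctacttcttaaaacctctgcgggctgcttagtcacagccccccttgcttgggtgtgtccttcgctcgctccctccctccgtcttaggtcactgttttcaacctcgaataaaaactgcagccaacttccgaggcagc

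The CD44 probe set with the highest mean, 212063_at, gave signals of 768, 997 and 684 at 0 h, 639.5, 786 and 538 at 1 h, and 5430.3, 5018 and 4362 at 4 h. It gave 7454, 6755 and 5215 at 8 h, 6169.9, 6851 and 5382 at 12 h, and 4863, 4578 and 4237 at 16 h. The values were 3665, 3473 and 4376 at 24 h and 1786, 2403 and 1898 at 48 h. The arrays of 0 and 1 h overlap, and all arrays from 4 h on lie above all of them; the 48 h arrays lie below every array of 4 to 24 h. The change from 0 h was 2.58 ± 0.16 at 4 h (SE, adjusted p = 2.7e-14), 2.96 ± 0.16 at 8 h (adjusted p = 7.9e-16) and 1.30 ± 0.16 at 48 h (adjusted p = 5.3e-08), and -0.31 ± 0.16 at 1 h (adjusted p = 0.36). In order of level, 8 h came first, then 12, 4, 16, 24, 48, 0 and 1 h. Neighbours in that order from 8 h down to 24 h had no difference beyond their spread (adjusted p 0.2 to 0.93), and neither had 0 and 1 h. Times ranked by their means differ little from their neighbours by construction, so this shows no plateau up to 24 h. The 24 h arrays lie below all arrays of 8 and 12 h. The differences of 24 h from 8 and 12 h were not tested. The level at 48 h was below that at 24 h by 0.92 on the log2 scale (adjusted p = 0.00029).

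The other CD44 probe sets give 7 further readings of that course. Of them 5, namely 204489_s_at, 204490_s_at, 209835_x_at, 210916_s_at and 212014_x_at, moved with 212063_at. Over these 6 the change from 0 h lay between -0.31 and 0.38 at 1 h, with 0 called, and between 2.14 and 3.25 at 4 h, 2.53 and 3.51 at 8 h, 2.65 and 3.58 at 12 h, 2.45 and 3.32 at 16 h and 2.03 and 2.66 at 24 h, with 6 called at each of these times. At 48 h it lay between 0.96 and 2.04, and 5 were called; 204489_s_at, at 0.96 ± 0.20 (SE, adjusted p = 0.00018), missed the 2-fold limit. That probe set gave 290.2, 667 and 436 at 0 h, the highest on 0 h replicate 2, and without this array its 48 h change was 1.25 and called. On 210916_s_at the same array was the lowest of 0 h (295, 134 and 156). The 2 names ending in _x_at mark probes that may also bind similar transcripts. By the pair test, which asks whether the difference between 2 probe sets of a gene changed over time, none of the other 5 parted from 212063_at over all times (adjusted p 0.14 to 0.52). At 48 h alone the difference of 209835_x_at from 212063_at had changed by 0.74 ± 0.21 (SE, adjusted p = 0.03).

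The other CD44 probe sets, 217523_at and 216056_at, stood apart. On 217523_at the signals were 6.75, 101 and 27.1 at 0 h, 64.1, 44.6 and 53.8 at 1 h, and 289, 154 and 171 at 4 h. From 8 to 48 h they ran from 6.78 to 132. Its 4 h arrays lie above all 0 h arrays, while from 8 h on the groups overlap with 0 h. The change was 2.08 ± 0.56 at 4 h (SE, adjusted p = 0.0047) and 1.04 ± 0.56 at 8 h (adjusted p = 0.16). Without 0 h replicate 1 the 4 h change was 1.56 and no longer called (adjusted p = 0.051). Without 0 h replicate 2, the array at 101, the 8 h change was 1.65 and called (adjusted p = 0.031). Its difference from 212063_at changed over time (adjusted p = 0.00041), by -1.92 at 8 h, -2.26 at 12 h and -2.11 at 24 h. Over the 15 such pairs of the 7 genes 4 were called (13.3% of 5035 pairs on the array). The untested 216056_at read 2.3 to 68.4 on the 24 arrays, never above an array's 40th percentile, with its highest value on 4 h replicate 3. Which CD44 splice forms each probe set reads was not given in the sources used here.

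**Figure D2:**
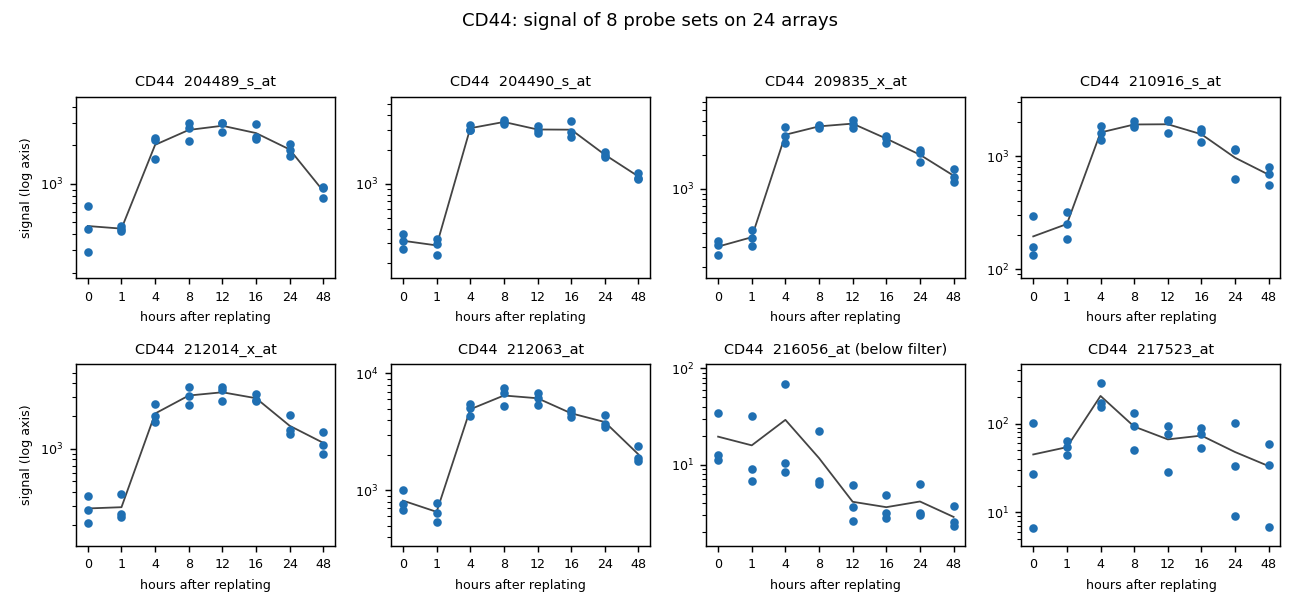
Signal (log axis, each panel with its own range) of the 8 CD44 probe sets against hours after replating (equal steps, not to scale); points are arrays and the line joins the means of 3. In 6 panels the lines climb between 1 and 4 h and come down towards 48 h, whereas 217523_at has its highest mean at 4 h only, and 216056_at reaches 68.4 at most.

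After the shared climb, 1 probe set of CD44 was called between neighbouring times. Against 1 h, 9 of 21 probe sets of the 7 genes were higher at 4 h (5.75% of all), 7 of them CD44's, with 2.13 to 3.36 for the 6 above. CD44 217523_at, 1 of the 7, passed with an adjusted p of 0.039 and lost the call when any 1 of the 6 arrays of 1 h and 4 h was left out (adjusted p 0.054 to 0.15). At 48 h against 24 h, 1 of 21 was lower (0.876% of all), CD44 204489_s_at at -1.07 ± 0.20 (SE, adjusted p = 0.00052). Of the other 5, 212063_at, 204490_s_at and 209835_x_at were at -0.92, -0.63 and -0.62 with adjusted p under the limit but less than 2-fold. The number lower was 0 without 24 h replicate 3 or without 48 h replicate 1, when 204489_s_at was just under 2-fold, and 2 without 48 h replicate 2, when 212063_at reached -1.05. Without 24 h replicate 3 or 48 h replicate 3, CD24 209772_s_at was called as higher (1.12 in both).

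At 48 h, CD44 was lower than at its height. Against 8 h, 7 of 21 probe sets were lower (5.58% of all) and 0 higher: the 6 of CD44, at -1.66 to -1.44, and ICAM1 215485_s_at, at -1.02. That ICAM1 call was lost with median centring (-0.93), quantile normalization (-0.998) and a pseudocount of 73.8 in place of 18 (-0.83), each under 2-fold, and without 8 h replicate 3 (adjusted p = 0.064) or 48 h replicate 2 (adjusted p = 0.062). Against 4 h, 10 of 21 were lower (8.40% of all) and 1 was higher (7.61% of all). The 10 were 6 of CD44 (217523_at among them, and not 212014_x_at, at -0.90), 3 of ICAM1 and TNFRSF12A, and the 1 was NES. For 212063_at the mean was 2029 ± 329 at 48 h, against 6475 ± 1145 at 8 h and 4937 ± 539 at 4 h (SD, n = 3). These comparisons and those with 0 h share the 48 h arrays.

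TNFRSF12A was higher at 1 h, when no CD44 probe set was called, and at all later times; the difference between the genes was not tested. Its 1 probe set, 218368_s_at, gave 1060.0, 947 and 1219.9 at 0 h, 3115, 3690.2 and 2931 at 1 h, and 6863, 6576 and 7827 at 4 h. It gave 6234, 6660.3 and 5778 at 8 h, 6272, 4292 and 7083 at 12 h, and 5418, 5398 and 5818 at 16 h. The last arrays gave 5159, 4982 and 5228 at 24 h and 4186, 2687 and 3373 at 48 h. All later arrays lie above the 3 arrays of 0 h, and the 48 h arrays overlap with those of 1 h. The change from 0 h was 1.58 ± 0.15 at 1 h (SE, adjusted p = 3.1e-09), 2.70 ± 0.15 at 4 h (adjusted p = 3.8e-15) and 1.63 ± 0.15 at 48 h (adjusted p = 2.1e-10). At 4 h it was above 1 h by 1.13 (adjusted p = 1.3e-06), and at 48 h it was at -1.07 from 4 h (adjusted p = 1.5e-06). That last call lies near the 2-fold limit: the change was -0.94 with each array centred on its median and -0.91 without 48 h replicate 2, and it missed the limit without 4 h replicate 3 as well. In order of level the times ran 4, 8, 12, 16, 24, 48, 1 and 0 h, where no neighbours from 4 to 24 h were told apart (adjusted p 0.55 to 0.95), nor were 48 and 1 h (0.81). Still, the 24 h arrays lie below all arrays of 4 and 8 h, differences that were not tested.

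ICAM1 was high already at 1 h, had its highest means at 4 h and, on 2 of its 3 probe sets, was called as lower again at 8 h. At 8 h the 6 CD44 probe sets above were all still called as higher than at 0 h. Its promoter window is shown for the match it holds, printed in capitals: GGAAATTCC, a match to the looser NF-kappaB form on both strands, whose first base lies 186 bases before the start. That form was added after the windows had been seen and occurs in 3.84% of all windows, and the NF-kappaB consensus, absent here, in 5.21%.
ICAM1 promoter window, chr19:10270870-10271119, + strand: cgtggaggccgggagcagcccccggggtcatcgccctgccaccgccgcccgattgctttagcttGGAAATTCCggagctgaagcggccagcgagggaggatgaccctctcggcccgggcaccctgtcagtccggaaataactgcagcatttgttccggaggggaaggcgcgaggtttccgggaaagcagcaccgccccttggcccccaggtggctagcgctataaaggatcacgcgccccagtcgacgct

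On 202637_s_at the ICAM1 signals were 196, 100.5 and 209 at 0 h, 1332, 1473 and 906 at 1 h, and 1749.8, 1558 and 1549 at 4 h. They were 705, 659.6 and 637 at 8 h, 586, 366 and 472 at 12 h, and 517, 562 and 496 at 16 h. The course ended with 443, 458 and 359 at 24 h and 613, 548 and 495 at 48 h. No later array falls within the 0 h range, and the 8 h arrays lie below all arrays of 1 and 4 h. The 4 h arrays lie above those of 1 h, but this difference of 0.41 ± 0.21 (SE) was not called (adjusted p = 0.18). The change from 0 h was 2.78 ± 0.21 at 1 h (SE, adjusted p = 8e-12), 3.19 ± 0.21 at 4 h (adjusted p = 1.3e-13), 1.93 ± 0.21 at 8 h (adjusted p = 7.8e-09) and 1.66 ± 0.21 at 48 h (adjusted p = 1e-07). Probe set 202638_s_at gave 2.87 and 3.16 at 1 and 4 h and then 1.70 and 1.12 at 8 and 48 h, all called, and its difference from 202637_s_at had no called change over time (pair test, adjusted p = 0.55).

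From 4 to 8 h, 2 of 21 probe sets were lower (1.56% of all) and 1 was higher (0.993% of all). The 2 were those of ICAM1, at -1.26 ± 0.21 on 202637_s_at (SE, adjusted p = 0.00017) and -1.46 ± 0.24 on 202638_s_at (adjusted p = 0.00014). After 8 h neither was called at any further step. Some late calls against 0 h rest on the level of 0 h replicate 2, the lowest of its group on both at 100.5 and 88.6: without it 202638_s_at was 0.91, 0.93 and 0.85 at 16, 24 and 48 h and 202637_s_at 0.99 at 24 h, all under 2-fold. The third probe set, 215485_s_at, gave 247, 239 and 129 at 0 h, 449.6, 532 and 276 at 1 h, and 463, 426 and 375 at 4 h. At 8 h it gave 298, 333 and 443, was not called against 4 h, and was at 0.78 ± 0.29 from 0 h (SE, adjusted p = 0.036, under 2-fold). From 12 h on its values ran from 129.7 to 310.0. Its change was 0.97 ± 0.29 at 1 h (SE, adjusted p = 0.049, under 2-fold) and 1.02 ± 0.29 at 4 h (adjusted p = 0.0073), a call lost without 0 h replicate 3 (0.75) or 4 h replicate 1 (0.95). It parted from 202637_s_at (pair test, adjusted p = 0.002), by -1.81 at 1 h, -2.17 at 4 h and -1.90 at 48 h.

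NES was higher from 4 h on, higher again at 8 h than at 4 h, and at 48 h still near its 8 h level. Its promoter window, the gene being on the minus strand of chromosome 1, is shown beside those of CD44 and ICAM1 because NES was the one gene called between 4 and 8 h as higher, and holds none of the 5 motifs.
NES promoter window, chr1:156677408-156677657, - strand: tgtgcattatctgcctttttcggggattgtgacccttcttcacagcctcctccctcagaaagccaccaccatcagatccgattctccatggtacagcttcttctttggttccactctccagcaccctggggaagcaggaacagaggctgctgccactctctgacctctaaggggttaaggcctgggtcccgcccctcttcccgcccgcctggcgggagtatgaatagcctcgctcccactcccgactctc

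The NES probe set 218678_at gave 28.4, 54.1 and 45.6 at 0 h, 45, 27.4 and 9.65 at 1 h, and 129, 151 and 112 at 4 h. It gave 295, 386 and 295 at 8 h, 356, 309 and 286 at 12 h, and 331, 306 and 263 at 16 h. It ended with 343, 307 and 383 at 24 h and 289, 308 and 409 at 48 h. The 4 h arrays lie between those of 0 and 1 h below and all later ones above, and the groups from 8 to 48 h overlap. The change from 0 h was -0.47 ± 0.29 at 1 h (SE, adjusted p = 0.47), 1.30 ± 0.29 at 4 h (adjusted p = 0.00077), 2.51 ± 0.29 at 8 h (adjusted p = 2e-08) and 2.55 ± 0.29 at 48 h (adjusted p = 1.1e-08). It was the 1 probe set of the 21 that was higher at 8 h than at 4 h (1.21 ± 0.29, adjusted p = 0.0068) and at 48 h than at 4 h (1.25 ± 0.29, adjusted p = 0.0011), and at 48 h it was 0.04 ± 0.29 from 8 h. With a pseudocount of 73.8 in place of 18 these rises were 0.81 at 4 h against 0 h, and 0.96 at 8 h and 1.00 at 48 h against 4 h, with adjusted p under 0.05 but just under 2-fold. In order of level the times ran 24, 48, 8, 12, 16, 4, 0 and 1 h, and no neighbours from 24 to 16 h were told apart (adjusted p 0.95 to 0.99).

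**Figure D3:**
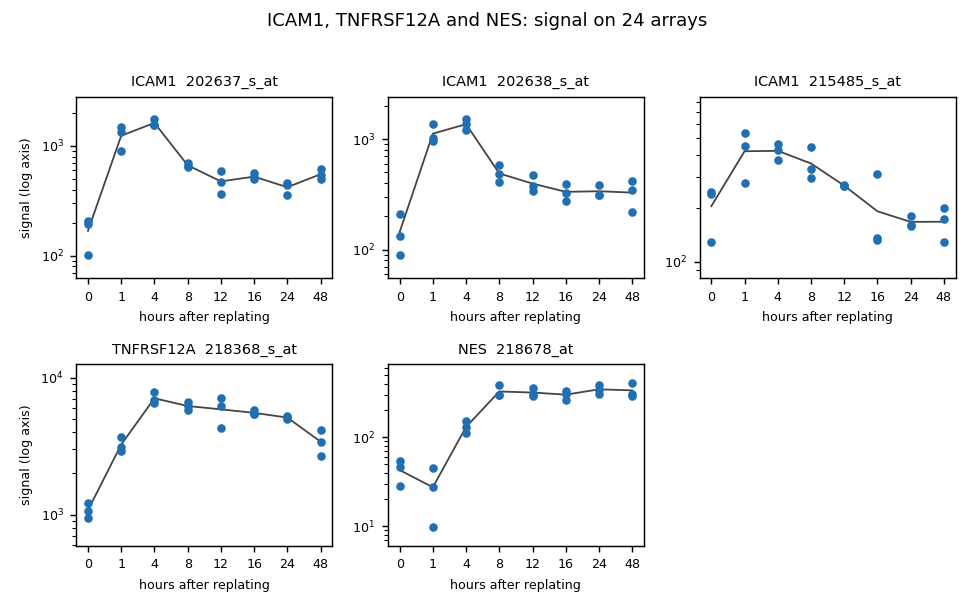
Signal (log axis, each panel with its own range) of the ICAM1, TNFRSF12A and NES probe sets against hours after replating (equal steps, not to scale); points are arrays and the line joins the means of 3. ICAM1 202637_s_at and 202638_s_at have their highest means at 4 h and are lower from 8 h on. TNFRSF12A has its highest mean at 4 h and declines slowly, and NES reaches its upper level at 8 h and keeps it.

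Between 8 and 24 h 1 step of 1 probe set was called. From 8 to 12 h 0 of 21 probe sets were called by limma (0.362% of all in either direction), with 2 at an unadjusted p under 0.05. From 16 to 24 h it was again 0 (1.15% of all), with 5 at an unadjusted p under 0.05. Of the 21, 2 had an adjusted p under 0.05 but were less than 2-fold. The 6 CD44 probe sets above were all below their 16 h level, at -0.86 to -0.25. This count was 1 without 24 h replicate 3, when CD44 212014_x_at reached -1.03. From 12 to 16 h 1 was lower (0.123% of all), CD24 209772_s_at.

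CD24 had no called change from 0 h at the settings used, though 1 of its probe sets came within reach of the limit at 12 h. The start of the gene on the minus strand of chromosome 6 has 3 windows, of which the first is shown with capitals at 2 matches, GGAGGTTCC to the looser NF-kappaB form on the minus strand and GGGGGTCCCC to the consensus, 147 and 72 bases before the start; the window is printed to be read beside that of ICAM1, which holds a match of the same form. The second window holds GGGGGTCCCC too, and the third holds the TEAD motif. A match describes letters and shows no binding.
CD24 promoter window, chr6:106975628-106975877, - strand: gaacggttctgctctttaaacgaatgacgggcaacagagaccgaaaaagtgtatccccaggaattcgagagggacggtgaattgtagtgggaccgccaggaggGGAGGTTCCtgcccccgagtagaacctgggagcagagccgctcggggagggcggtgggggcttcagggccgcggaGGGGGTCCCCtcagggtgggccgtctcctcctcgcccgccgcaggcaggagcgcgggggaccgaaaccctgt

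None of the 6 CD24 probe sets was called at any time against 0 h, and over all 6 the change ran from -0.49 at 1 h to 0.97 at 12 h. On 216379_x_at, the one with the highest mean, the signals were 8305, 6419 and 5228 at 0 h, 4641, 4659 and 4598 at 1 h, and 7201, 6200.5 and 5132 at 4 h. From 8 to 48 h they ran from 5572 to 8654 and overlapped with those of 0 h at each time. The 1 h arrays lie below all 0 h arrays, but the change of -0.49 ± 0.16 (SE) had an adjusted p of 0.093. Its F-test over all times gave an adjusted p of 0.047, and those of the other CD24 probe sets but 209772_s_at 0.089 to 0.61.

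The odd one was 209772_s_at. It gave 961, 547 and 799 at 0 h, 1428, 1731 and 1329.7 at 12 h, 712, 728 and 672 at 16 h and 1566, 1228 and 914 at 48 h. The 12 h arrays lie above all arrays of 0 and 16 h. Its change from 0 h was 0.97 ± 0.23 at 12 h (SE, adjusted p = 0.0012), just under 2-fold, and 0.68 ± 0.23 at 48 h (adjusted p = 0.023). The 12 h change was past the limit and called with median centring (1.17, adjusted p = 0.00035) and on leaving out 0 h replicate 1, 0 h replicate 3, 12 h replicate 1 or 12 h replicate 3 (adjusted p 0.00063 to 0.0041). From 12 to 16 h it was called at -1.06 ± 0.23 (SE, adjusted p = 0.024). That call was lost with median centring (-0.98, adjusted p = 0.072) and on leaving out any 1 of the 6 arrays of 12 and 16 h (adjusted p 0.051 to 0.15), so it rests on every one of them. Against 216379_x_at the pair test called 209772_s_at (adjusted p = 0.01) and 208651_x_at (0.029), and not the other 3. Of the 6 CD24 probe sets 3 end in _x_at, and CD24 has processed pseudogenes of near-identical sequence, so how far they read CD24 alone is uncertain.

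THY1, a marker of oval cells in rodent liver and of fibroblasts, was not called at any time on its 3 probe sets. Probe set 208851_s_at gave 22.2, 268 and 122 at 0 h, 172, 59.7 and 180.0 at 4 h and 57.5, 68.5 and 80.2 at 48 h. The 0 h arrays span the whole range of the others, so a change smaller than this spread was not detectable here. The changes from 0 h on 208850_s_at were all below 0 and ran up to -0.20 at 16 h, and the 4 h level was 0.499 times that of 0 h (adjusted p = 0.16). On 213869_x_at they ran from -0.24 at 1 h to 1.09 ± 0.61 at 4 h (SE, adjusted p = 0.2). F-tests over all times gave adjusted p of 0.45 to 0.75, and 4 to 13 of the 24 arrays lay above the 40th percentile. Single arrays decide such values: 208850_s_at at 4 h was -1.60 and called (adjusted p = 0.03) without 4 h replicate 2, and 213869_x_at at 24 h was 1.70 and called (adjusted p = 0.03) without 24 h replicate 3.

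PROM1 was low in the signal range throughout, with its mean log2 value at percentile 22.7 of all probe sets. Its 1 probe set, 204304_s_at, gave 63.5, 70.9 and 58.2 at 0 h, 20.7, 8.35 and 2.76 at 4 h, 33.2, 72.8 and 30.8 at 12 h and 47.6, 7.4 and 46.3 at 48 h. The 0 h arrays lie above every later array except 12 h replicate 2. The highest array mean was at 0 h and the lowest at 4 h. Only 1 of 24 arrays lay above its 40th percentile, so the probe set was not tested and no fold is given. Of the 4 promoter windows of PROM1, the last holds the AP-1 motif, as do 6.57% of all windows.

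**Figure D4:**
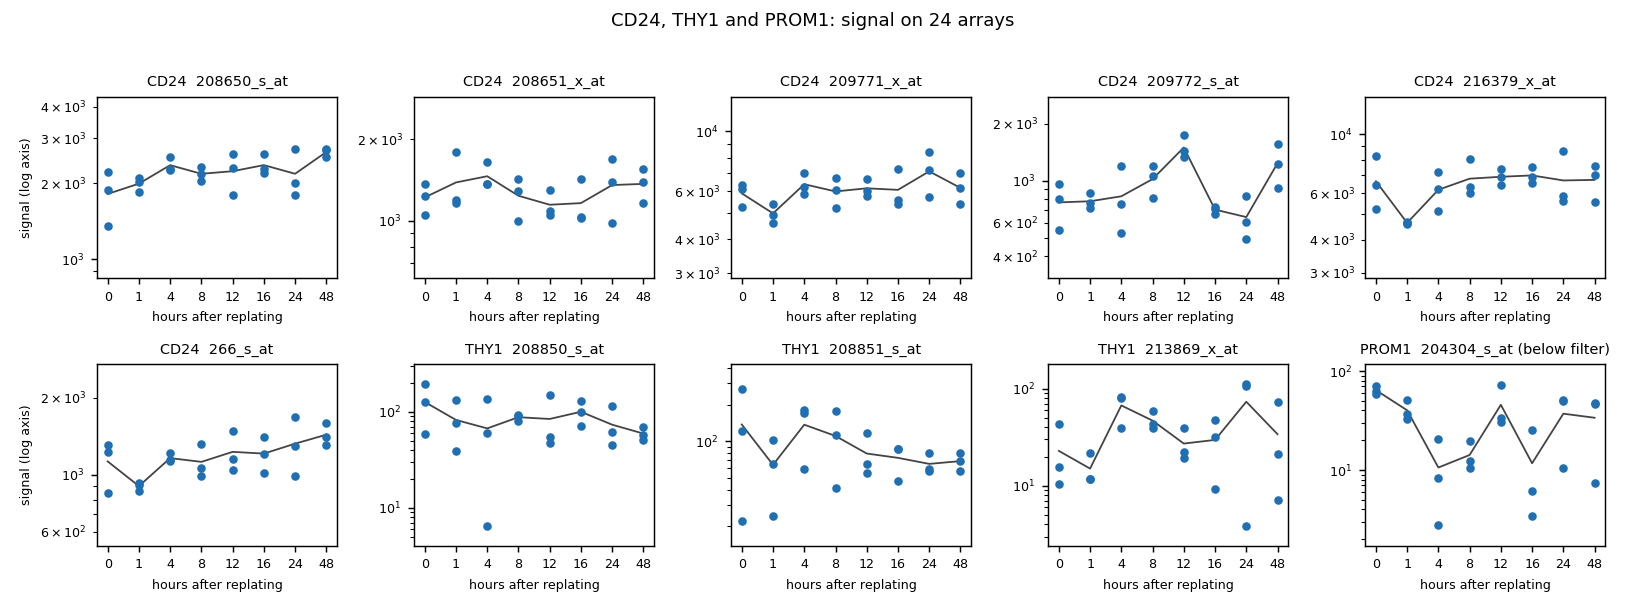
Signal (log axis, each panel with its own range) of the CD24, THY1 and PROM1 probe sets against hours after replating (equal steps, not to scale); points are arrays and the line joins the means of 3. CD24 arrays of different times overlap in most panels, 209772_s_at is highest at 12 h, and THY1 and PROM1 scatter between 2.76 and 268.

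The genes whose course was most like each of the 6 genes with a tested probe set were taken by Pearson correlation of the 8 time means of log2 values, over 9960 other genes with 1 probe set each. The points share libraries and scaling, and the values are a description. Most like CD44 212063_at were CDCP1, a membrane glycoprotein of epithelial cells (r = 0.995), the RNA helicase DDX10 (0.991) and the import receptor IPO7 (0.990). CDCP1 had mean signals of 26.9 at 0 h, 336 and 621 at 4 and 8 h, and 133 by 48 h. Most like TNFRSF12A were PMEPA1, a membrane protein that restrains TGF-beta signalling (0.989), the EGFR ligand EREG (0.975) and the chromatin protein HMGA1 (0.972). Most like ICAM1 202637_s_at were TNFAIP8 (0.982), the ubiquitin protease USP36 (0.977) and the small bZIP factor MAFF (0.964). MAFF had its highest mean at 1 h and ICAM1 at 4 h, though the 1 and 4 h levels of ICAM1 were not told apart. Most like NES were the chaperonin subunit CCT2 (0.995), the activin-binding protein FSTL3 (0.994) and the translation initiation subunit EIF3D (0.994). For CD24 216379_x_at (CAD, AHNAK2, KIAA0753) and THY1 208851_s_at (OGFOD1, USP4, RING1) the time means spanned only 0.59 and 0.93 on the log2 scale, so the likeness is one of small differences.

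Around CD44, 22 genes for hyaluronan handling and for CD44's known partners were tested, each by 1 probe set. Of these 3 were higher and 1 lower at 4 h (7.53% and 7.03% of 9966 genes), 5 and 0 at 8 h (8.37% and 10.1%) and 6 and 1 at 48 h (9.76% and 11.6%). The list's median change was 0.72 at 4 h and 0.46 at 48 h, beside -0.16 and -0.12 over all genes. HMMR, a hyaluronan receptor also found on the mitotic spindle, was 2104 ± 90.2 at 48 h, against 317 ± 118 at 0 h (SD, n = 3), a change of 2.73 ± 0.26 (SE, adjusted p = 3.1e-10). Its course differed from CD44's: it was at -1.04 at 4 h and 2.60 at 24 h, both called. KHDRBS1, the splicing regulator Sam68 that acts on CD44 exons, changed by 1.63 ± 0.24 at 48 h (SE, adjusted p = 1.5e-06) by the probe set used, while its other probe sets were at 1.11 and -0.92. LYVE1, a hyaluronan receptor of lymphatic and sinusoidal endothelium, was at -1.68 ± 0.67 (SE, adjusted p = 0.049), from a signal of 22.9 ± 21 at 48 h, against 128 ± 86.7 at 0 h. Chosen after their values were seen, moesin (MSN) changed by 1.20 at 4 h, 2.19 at 16 h and 1.37 at 48 h, all called, and EGFR by 1.73 at 4 h, called, and -0.38 at 48 h, not called. The other EGFR probe sets were at 1.86 and 0.10 at 4 h. Ezrin (EZR) and radixin (RDX), moesin's relatives, had 0 called changes by the probe set used (0.69 and 0.37 at 4 h), but their other probe sets reached 1.40 at 48 h and 1.52 at 4 h for EZR and 1.26 at 4 h for RDX, so no difference from moesin is shown. The hyaluronan synthase HAS2 had 0 called changes (0.78 at 4 h).

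**Figure D5:**
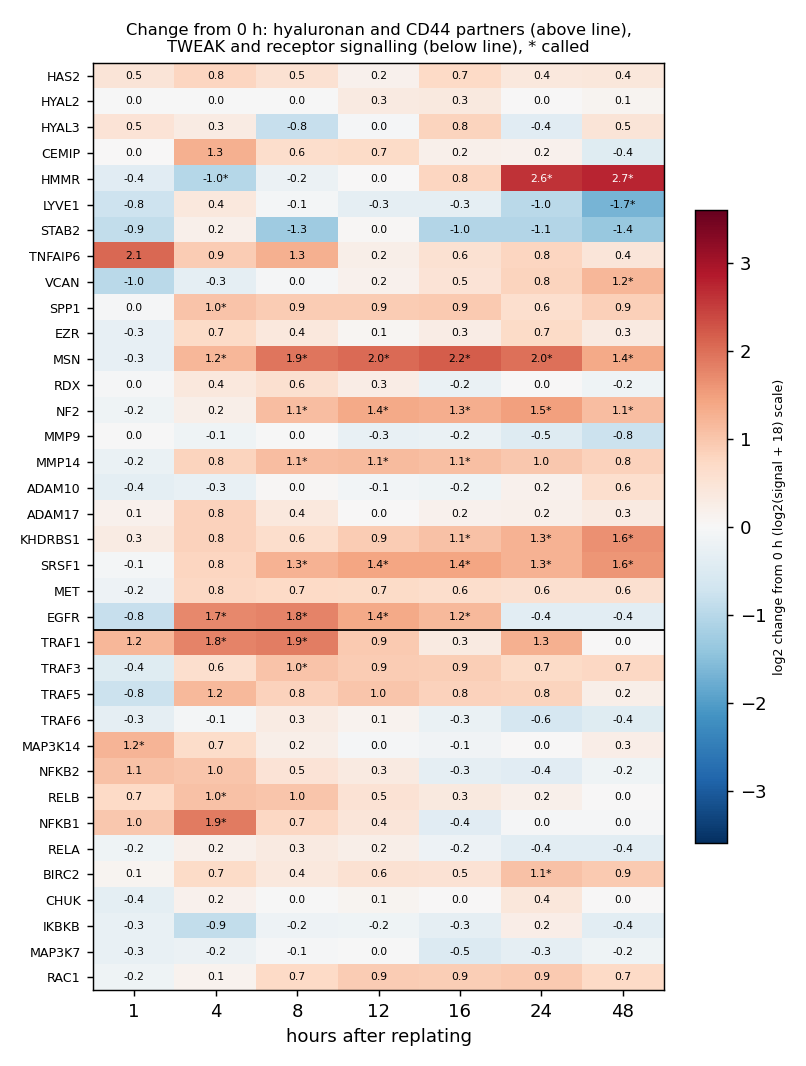
Log2 change from 0 h (colour and printed value) at 7 later times of the 22 tested hyaluronan and CD44 partner genes, above the line, and of the 14 tested genes of TWEAK receptor signalling, below it, with an asterisk where the change was called. MSN is called from 4 h to 48 h and HMMR is red at 24 and 48 h, while below the line most asterisks stand at 4 and 8 h.

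Downstream of TNFRSF12A, 14 genes of TWEAK receptor signalling were tested. Of these 1 was higher at 1 h (2.18% of all genes), MAP3K14, the NF-kappaB-inducing kinase NIK, at 1.23. At 4 h 3 were higher (7.53% of all genes), NFKB1 by 1.88 ± 0.26 (SE, adjusted p = 1.1e-06), TRAF1 by 1.77 ± 0.53 (adjusted p = 0.011) and RELB by 1.05 ± 0.26 (adjusted p = 0.0025). At 48 h 0 of 14 were called by limma (9.76% of all genes higher and 11.6% lower), when TNFRSF12A itself was at 1.63. NFKB1 had signals of 1505 ± 433 at 4 h, against 387 ± 50.6 at 0 h (SD, n = 3), and was -0.03 from 0 h at 48 h.

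Among 18 tested leukocyte adhesion genes and ICAM1 partners, 0 were higher and 1 was lower at 4 h (7.53% and 7.03% of all genes). The list's median was -0.54, and all 3 ICAM1 probe sets were higher at that time. At 48 h 1 was higher and 2 lower (9.76% and 11.6% of all genes). MADCAM1, an endothelial adhesion molecule, was at -2.01 ± 0.57 (SE, adjusted p = 0.0061) and ICAM4 at -1.32 ± 0.50 (adjusted p = 0.038). Both were dim: MADCAM1 gave 30.4 ± 22.0 at 48 h, against 168 ± 42.3 at 0 h (SD, n = 3). ICAM4 gave 11.4 ± 8.82 at 48 h, against 58.3 ± 34.8 at 0 h. CD47, the receptor known as a signal against phagocytosis, was at 1.09 ± 0.14 (SE, adjusted p = 1.4e-07). The other CD47 probe sets were at 1.28 and -0.81. The integrin subunits that bind ICAM1, ITGAL, ITGAM and ITGB2, had no called change at 48 h by the probe set used (-1.45, -0.25 and -0.55), and the other ITGAM probe set was at 0.72.

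Of 12 tested genes for intermediate filaments other than nestin, 7 were higher and 0 lower at 24 h (10.3% and 11.1% of all genes), with a list median of 1.31. The biliary and progenitor keratin KRT19 was 14869 ± 2971 at 24 h, against 3357 ± 221 at 0 h (SD, n = 3), a change of 2.12 ± 0.15 (SE, adjusted p = 1.7e-13). SYNC, a filament-linked protein of muscle, changed by 2.00 ± 0.41 (SE, adjusted p = 0.00017). The neurofilament gene NEFL was at 2.06 ± 0.45 (SE, adjusted p = 0.00038) by the probe set used, but its other probe sets were at -1.22 and 0.89 at 24 h.

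Of 19 other tested progenitor and stem cell markers, 5 were higher and 1 was lower at 8 h (8.37% and 10.1% of all genes), with a list median of 0.17. KRT23, a keratin known to be raised in injured liver, was 2444 ± 248 at 8 h, against 39.996 ± 49.9 at 0 h (SD, n = 3), a change of 5.73 ± 0.40 (SE, adjusted p = 3.3e-13), and was at 0.27, not called, at 48 h. The tetraspanin CD9 changed by 2.90 ± 0.14 at 8 h (SE, adjusted p = 7.3e-17) and 2.25 at 48 h, and the transcription factor SOX4 by 3.44 at 1 h and 2.42 ± 0.15 at 8 h (adjusted p = 1.2e-14). CD9 thus was called from 4 h to 48 h, as CD44 212063_at was, while KRT23 and SOX4 were called at 1 h already, as TNFRSF12A was.

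Among 18 other tested GPI-anchored surface proteins, the class of CD24 and THY1, 4 were higher and 2 lower at 12 h (8.68% and 10.4% of all genes), with a list median of -0.26. PLAUR, the urokinase receptor, changed by 2.70 ± 0.29 at 12 h (SE, adjusted p = 5.1e-09). The ephrin ligand EFNA1 was 480.3 at 12 h, against 2314 at 0 h, a change of -2.23 ± 0.18 (SE, adjusted p = 1.9e-11). The complement inhibitor CD59 changed by 1.55 ± 0.17 at 12 h, and its other probe sets by 1.73, 1.62 and 1.13.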

How the data were processed

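Gene expression of HepaRG cells was measured on 24 arrays, 3 at each of 8 times. The authors deposited intensities on a linear scale, with 1 value for each probe set on each array, made with MAS5 per the submitters' processing notes; no version or scaling target of it is stated there. Each deposited array has a mean intensity of 500.2 to 500.3 without its lowest and highest 2% of probe sets, so it had been scaled. Per the labels' protocols, biotin-labelled cRNA came from a 3' in vitro transcription kit, so probe sets read mainly the 3' ends of transcripts. Arrays carry no read depth, and their number limits the precision. No 2 arrays were identical. Correlations between arrays were 0.929 to 0.966 within a time and 0.841 to 0.954 between times.

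Signals were taken to log2 after adding 18 (the 20th percentile over all arrays), which understates changes of dim probe sets. Tested were probe sets for which 3 or more arrays lay above their own 40th percentile. A linear model per probe set (limma 3.58.1 under R 4.3.3, moderated with an intensity trend) was fitted over all 24 arrays and 17122 probe sets, two-sided, with Benjamini-Hochberg adjustment per comparison, in 15 comparisons: 7 with 0 h, 6 between neighbouring later times, and 48 h against both 4 h and 8 h. Beyond these 15, times next to each other in a gene's order of level were compared by the same model. Such neighbours were picked by their means, so a lack of difference between them shows little. The pair test fitted the within-array difference between each further probe set of a gene and the one with the highest mean. The script was tested on simulated data. Gene symbols were read from the annotation table of the array (1 symbol for 19065 probe sets, several for 1043, none for 2107); no probe set with several symbols holds 1 of the 7 genes. Lists used 1 probe set per gene, the one with the highest mean.

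The 7 genes, the lists and the tests were chosen with earlier results of these data known. Named by rule were all 7 genes and their probe sets, up to 3 called genes per list, by size of change, at the time when most of the list was called against 0 h, and the 3 genes most like each. Promoter windows, the 250 bases before a gene's start, came from RefSeq (GRCh38.p14, 35116 windows). Of the 7 genes 5 had a window there. TNFRSF12A and THY1 had none and were not searched for motifs. Alternatives were no pseudocount, a larger one (73.8, the 40th percentile), quantile normalization, median centring, no filter, a stricter filter, a fit of only the groups compared, 1 probe set per gene, the average over a gene's probe sets, the replicate number as a block and each array left out. Whether replicate numbers pair samples was checked: over 84 pairs of same-numbered samples of different times the deviations from the time means correlated at -0.055 to 0.068, so no block was used. Plots used matplotlib 3.10.9 (Python 3.11.15).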

Additional observations from a re-analysis of the deposited data

How the results depend on the processing

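No change of a tested probe set of the 7 genes reversed its sign and call under any alternative run. The counts of called probe sets in both directions together stayed within 1.5 times of those reported, with these exceptions. From 12 to 16 h the count was 0 with median centring (1 as reported) and 0 to 1 over the arrays left out. From 16 to 24 h it was 0 to 1 (0 as reported) and from 24 to 48 h 0 to 2 (1 as reported) over the arrays left out. The replicate number as a block left 315 of 315 changes on the same side of the threshold and moved no count by over 1.5 times; same-numbered samples share only a number. A larger pseudocount took 8 changes under 2-fold, all of ICAM1 or NES, so that 0 in place of 1 probe set was higher at 8 h and at 48 h against 4 h (NES, 0.96 and 1.00), and averaging all probe sets of a gene took 3, ICAM1's at 16, 24 and 48 h (0.88, 0.75 and 0.85). Scaling moved the median of all tested probe sets against 0 h at 48 h to 0.02 with quantile normalization and 0.14 with median centring, against -0.12 as deposited. The share of higher calls at 48 h was then 55.0% and 66.7%, against 45.6%. Dim probe sets (THY1, PROM1, CD44 217523_at and 216056_at) limit what can be seen.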
